A study of Mus musculus with 2 samples.

Results

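A small group of B16 F10 melanoma cells was sorted as strongly pigmented but grouped by its RNA with the weakly pigmented cells. The B16 F10 line, from a melanoma of the mouse, contains melanin, and the labels name melanocytes as its cell type. The cells were collected as high pigment (HP) or low pigment (LP) by side scatter, a flow cytometer's measure of how granular a cell is, after 7 days of sparse growth from 100 cells per cm2 in high-glucose medium with serum. Each sort gave 1 single-cell library, and no other agent or genotype is given, so the sorts share line, medium and time. The group described here holds every cell that the authors' deposited cell table names HP and places in cluster 1 or 2, which is 93 of 4036 cells, 48 in cluster 1 and 45 in cluster 2. They made up 4.35% of the 2136 HP cells (exact 95% interval 3.53–5.31), and 4.48% of cluster 1 and 5.19% of cluster 2. They were set against the 2043 HP cells of clusters 0 and 3, called the remaining HP cells, and against the 1845 LP cells of clusters 1 and 2, called the cluster-matched LP cells.

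Immediate early genes encode transcription factors and feedback regulators that growth factors, stress and cell handling switch on within minutes, and many of them are bound by CREB, serum response factor or AP-1. AP-1 itself is a dimer of Jun and Fos proteins. Cholesterol synthesis genes are switched on together by the factor SREBP2 when a cell's sterols run low. Melanin is made from tyrosine by Tyr, Tyrp1 and Dct in melanosomes, whose genes are driven by Mitf, the central transcription factor of melanocytes, together with Sox10.

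The clusters were made from the expression of these same cells and each sort is a single library, so all values below are descriptions and no test was made. Counts of unique molecular identifiers (UMIs) were summed over the cells of a group and given as CPM, the standard scaling of each group to the same total of UMIs, and a change was called by size alone at 1.5-fold among the 5907 genes with a mean of at least 20 CPM over the 3 groups. Brackets after a ratio give an exact 95% interval, which covers counting error only and leaves out variation between cells, sorts and cultures. Exact intervals of shares of cells cover the sampling of cells within 1 library only and leave out variation between sorts and cultures. The 93 cells held 1058484 UMIs, with a cell median of 11153 UMIs (from 7619 up to 19395) and 3414 detected genes. The remaining HP cells had a median of 12633 UMIs and the cluster-matched LP cells one of 16030, and the median share of mitochondrial UMIs was 5.43%, 5.06% and 5.61% in the 93 cells, the remaining HP cells and the cluster-matched LP cells. A limit of 3 counts was 2.83 CPM in the 93 cells. Intervals of the ratios were wide accordingly, by a median factor of 1.31 each way. Doublets called within each library were 0 of the 93 cells, 15 of the 2043 remaining HP cells and 18 of the 1845 cluster-matched LP cells. With so few calls, 0 among 93 cells does not show that the group held fewer doublets. The libraries shared 2 barcode sequences, and 0 of the 93 cells carried one. Melanocyte genes were abundant in the 93 cells, with 6752 CPM of Dct, 1865 CPM of Mlana and 386 CPM of Mitf. The 7 fibroblast markers summed to 3 UMIs in the 93 cells, the 7 leukocyte markers to 5, and the 5 keratinocyte and 5 erythroid markers to 0. Of the 6 endothelial markers only Pecam1 passed 5 UMIs in the 93 cells, with 26 UMIs (24.6 CPM) in the 93 cells, 55 (1.98 CPM) in the remaining HP cells and 721 (22.8 CPM) in the cluster-matched LP cells, while Cdh5, Kdr and Emcn were at 0 in the 93 cells. Vwf had 5 UMIs in the 93 cells, 81 in the remaining HP cells and 121 in the cluster-matched LP cells. The part of Pecam1 in the results was not tested. The Schwann cell genes Mbp and S100b, shared with melanocytes, had 146 and 219 CPM in the 93 cells and were present in all groups, while Ngfr was at 0 in the 93 cells.

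The immediate early genes had the largest median ratio to the remaining HP cells of the lists compared. This rank is no independent evidence, because the list was chosen with earlier results known and holds the markers Jun and Fos. The cells were also picked for their place in the LP clusters. For this list the cluster-matched LP cells themselves had a median log2 ratio of 2.09 to the remaining HP cells. Of 39 listed genes 28 were measured, and 22 of these rose and 1 fell against the remaining HP cells, where 8.21% of all measured genes were higher and 1.95% lower (485 and 115 genes, or 354 and 184 once ratios were centred on the median gene). Their median log2 ratio was 1.67, against 0.09 for all measured genes. Against the cluster-matched LP cells 0 of the 28 rose and 6 fell, with 3.4% of all measured genes higher and 1.51% lower, and the median log2 ratio was −0.26. The list summed to 3896 CPM in the 93 cells, 1526 CPM in the remaining HP cells and 4797 CPM in the cluster-matched LP cells.

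Jun, an AP-1 subunit and one of the 3 genes listed as markers of these cells from earlier results (chromosome 4, 95049034 to 95052222 in mm10), had 587 CPM in the 93 cells, 111 CPM in the remaining HP cells and 851 CPM in the cluster-matched LP cells. It was therefore 5.27-fold higher than in the remaining HP cells (4.83–5.75) and 1.45-fold lower than in the cluster-matched LP cells (1.34–1.57). Fos, its AP-1 partner (chromosome 12, 85473890 to 85477273), had 155 CPM in the 93 cells, 16.7 CPM in the remaining HP cells and 139 CPM in the cluster-matched LP cells. Its ratio to the remaining HP cells was 9.28 (7.72–11.1), the largest among genes with a mean of at least 50 CPM, while its ratio to the cluster-matched LP cells was 1.12 (0.9498–1.31). Fosb, a further AP-1 gene, was 7.20-fold higher than in the remaining HP cells, the antiproliferative gene Btg2 6.29-fold and Dusp1, a phosphatase that switches off MAP kinases, 6.05-fold. The zinc finger factor Egr1 was 5.95-fold, the Notch target Hes1 4.89-fold and the stress factor Atf3 4.58-fold higher. The salt-inducible kinase gene Sik1 and the orphan nuclear receptor gene Nr4a2 were 4.38-fold and 4.35-fold higher. For Dusp1 the 93 cells had 109 CPM, the remaining HP cells 18.0 CPM and the cluster-matched LP cells 171 CPM. The members that fell against the cluster-matched LP cells were Dusp1 (1.58-fold), Sik1 (1.53-fold), Pim3 (1.58-fold), Maff (1.65-fold), Nr4a1 and Ccn1. The only member lower than in the remaining HP cells was Dusp6, a phosphatase of ERK, with 21.7 CPM in the 93 cells, 35.05 CPM in the remaining HP cells and 26.6 CPM in the cluster-matched LP cells.

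**Figure D1:**
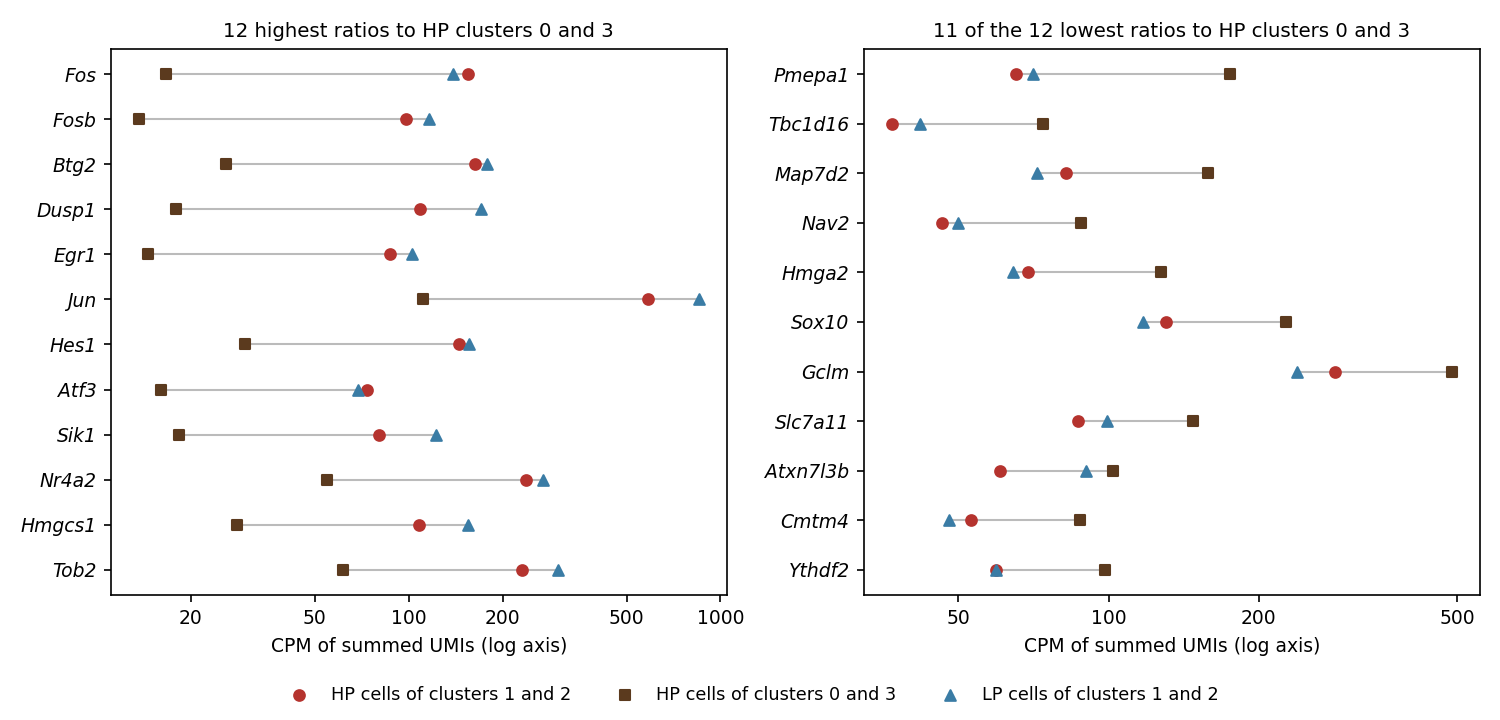
CPM of summed UMIs on a log axis for the 12 genes with the highest (left) and 11 of the 12 with the lowest (right) ratio of the 93 HP cells of clusters 1 and 2 (circles) to the HP cells of clusters 0 and 3 (squares), with LP cells of clusters 1 and 2 as triangles. For Fos the circle lies at 155 CPM, the square at 16.7 and the triangle at 139, and for Pmepa1 at 65.2, 175 and 70.7, and Atxn7l3b is a gene whose circle lies away from its triangle, at 60.5 and 90.2 CPM.

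The 250 bases before the RefSeq start sites (build GRCm38.p6) of Fos, Dusp1, Jun and Hmgcs1 are shown because Fos, Dusp1 and Jun were higher together in the 93 cells and Hmgcs1 was chosen as a marker of the sterol genes. Capitals mark matches on either strand to the cAMP response element TGACGTCA, its core TGACG and, in Hmgcs1, the sterol regulatory element TCACNCCAC. The first of the Dusp1 matches in capitals is a core and the other a full element, which holds 2 overlapping cores, 1 on each strand.
Fos, chr12:85473640-85473889, + strand: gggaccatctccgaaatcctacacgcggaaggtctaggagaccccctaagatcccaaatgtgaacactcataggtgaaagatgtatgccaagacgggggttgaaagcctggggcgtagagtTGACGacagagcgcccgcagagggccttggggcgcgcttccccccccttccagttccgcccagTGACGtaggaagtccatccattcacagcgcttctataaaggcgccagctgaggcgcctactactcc
Dusp1, chr17:26508473-26508722, - strand: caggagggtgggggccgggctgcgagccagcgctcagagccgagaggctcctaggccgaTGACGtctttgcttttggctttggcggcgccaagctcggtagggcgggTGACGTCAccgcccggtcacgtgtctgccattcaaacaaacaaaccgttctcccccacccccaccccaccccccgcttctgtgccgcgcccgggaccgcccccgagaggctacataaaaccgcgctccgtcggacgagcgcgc
Jun, chr4:95052223-95052472, - strand: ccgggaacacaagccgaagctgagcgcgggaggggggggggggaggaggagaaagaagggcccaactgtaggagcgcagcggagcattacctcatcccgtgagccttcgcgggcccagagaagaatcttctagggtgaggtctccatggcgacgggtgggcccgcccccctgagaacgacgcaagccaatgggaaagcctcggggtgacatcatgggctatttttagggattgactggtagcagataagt
Hmgcs1, chr13:119690101-119690350, + strand: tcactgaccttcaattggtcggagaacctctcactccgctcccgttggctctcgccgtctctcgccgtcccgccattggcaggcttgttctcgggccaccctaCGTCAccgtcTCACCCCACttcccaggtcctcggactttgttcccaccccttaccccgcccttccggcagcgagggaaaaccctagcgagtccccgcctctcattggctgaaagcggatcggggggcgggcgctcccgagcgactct
Of 32851 promoters of this length, 17.8% held the core, 1.55% the full element and 1.05% the sterol element, while the AP-1 letters TGANTCA stood in 6.75% and the CArG box, bound by serum response factor, in 1.47%. In Fos the cores lie 129 to 125 and 66 to 62 bases before the start, in Dusp1 the full element lies 143 to 136 bases before it, and in Hmgcs1 the sterol element lies 137 to 129 bases before it. The Jun window held no exact match to the letters searched, and near matches were not searched for. The AP-1 letters and the CArG box had no exact match in any of the windows shown. A match is a description, and neither a match nor its absence in this window says whether a factor binds.

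The immediate early genes varied among the 93 cells. To compare cells of unequal depth, each cell was thinned to 7500 UMIs. The list's median share per cell was then 0.387% in the 93 cells (quartiles 0.267 to 0.493), 0.133% in the remaining HP cells (0.0933 to 0.2) and 0.480% in the cluster-matched LP cells (0.373 to 0.587). Of the 93 cells, 56 (60.2%) lay above the 95th percentile of the remaining HP cells and 25 (26.9%) above the median of the cluster-matched LP cells. The lowest of the 93 cells had 0.0667% and the highest 1.13%. The ranges overlapped, with 0.0133% to 1.13% in the remaining HP cells and 0.0133% to 1.2% in the cluster-matched LP cells. Yet 86 of the 93 cells (92.5%) lay above the median of the remaining HP cells. For Jun the gap to the LP cells was wider in cluster 1. It had 552 CPM in HP cells and 1006 CPM in LP cells of cluster 1, a 1.82-fold lower level (1.62–2.06), but 621 CPM in HP cells and 701 CPM in LP cells of cluster 2 (1.13-fold lower, 1.01–1.26). HP cells of cluster 3 had 191 CPM of Jun and those of cluster 0 had 92.1 CPM. With cluster 1 set against HP cluster 3, the median log2 ratio of the 28 immediate early genes was 1.05, and with cluster 2 set against HP cluster 0 it was 1.60.

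**Figure D2:**
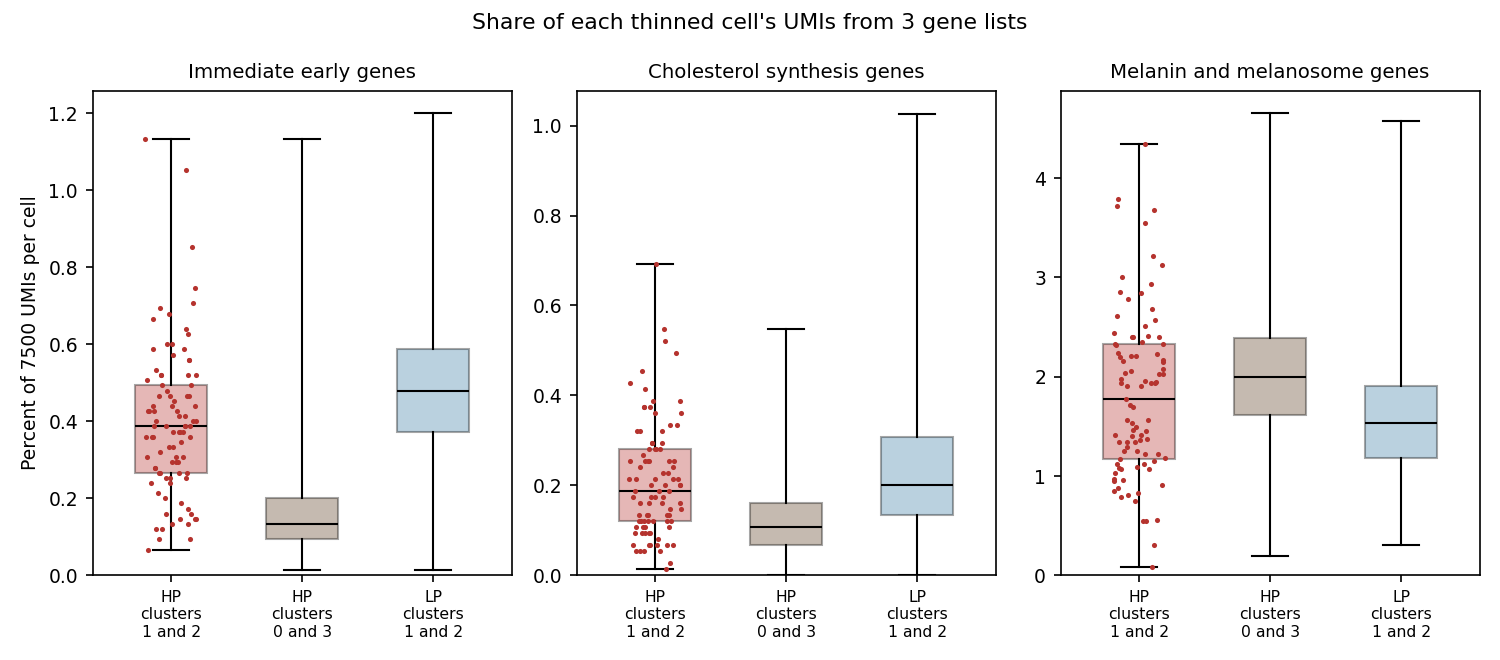
Percent of 7500 UMIs per thinned cell from 3 gene lists, with HP cells of clusters 1 and 2 left, HP cells of clusters 0 and 3 in the middle and LP cells of clusters 1 and 2 right. Boxes give median and quartiles, whiskers the lowest and highest cell, and points the 93 single cells. The left medians are 0.387% for immediate early, 0.187% for cholesterol synthesis and 1.77% for melanin genes, each between those of the other groups.

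Cholesterol synthesis genes were near the level of the LP cells. This nearness is no independent evidence, because the list was chosen with earlier results known and holds the marker Hmgcs1. The cells were also picked for their place in the LP clusters. For this list the cluster-matched LP cells themselves had a median log2 ratio of 0.81 to the remaining HP cells. Of 25 listed genes 23 were measured, and 16 of them rose and 0 fell against the remaining HP cells, with a median log2 ratio of 0.74, and all 23 had ratios above 1. Against the cluster-matched LP cells 0 rose and 0 fell, and the median was −0.07. Among all measured genes 8.21% were higher and 1.95% lower in the first comparison, and 3.4% and 1.51% in the second. The list summed to 2155 CPM in the 93 cells, 1176 CPM in the remaining HP cells and 2287 CPM in the cluster-matched LP cells.

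Hmgcs1 (chromosome 13, 119690379 to 119708260), the enzyme that makes the precursor of mevalonate, had 108 CPM in the 93 cells, 28.1 CPM in the remaining HP cells and 155 CPM in the cluster-matched LP cells. Its ratios were 3.83 to the remaining HP cells (3.12–4.67) and 0.696 to the cluster-matched LP cells (0.573–0.838), the lowest of the list in this second comparison. Mvd and Idi1, enzymes of isoprenoid synthesis, were 2.61-fold and 2.56-fold higher than in the remaining HP cells. Insig1, which holds SREBP2 in the endoplasmic reticulum when sterols are plentiful, had 100 CPM in the 93 cells, 40.1 CPM in the remaining HP cells and 97.3 CPM in the cluster-matched LP cells. Ebp, Dhcr7 and Srebf2, the gene of SREBP2 itself, had the smallest ratios to the remaining HP cells, at 1.32, 1.33 and 1.39. In thinned cells the list took a median of 0.187% in the 93 cells, 0.107% in the remaining HP cells and 0.2% in the cluster-matched LP cells, and 42 of the 93 cells (45.2%) lay above the median of the cluster-matched LP cells.

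Over the 93 cells together, melanin and melanosome genes lay between the other groups by the medians of the list, though clusters 1 and 2 differed, as given below. Of 20 measured members 0 rose and 2 fell against the remaining HP cells, with a median log2 ratio of −0.11, and 1 rose and 0 fell against the cluster-matched LP cells, with a median of 0.14. The shares of all measured genes were 8.21% higher and 1.95% lower in the first comparison, and 3.4% and 1.51% in the second. The count of 1 of 20 that rose cannot be told from the 3.4% share and is no result about the list. Dct, the dopachrome tautomerase, had 6752 CPM in the 93 cells, 8059 CPM in the remaining HP cells and 5841 CPM in the cluster-matched LP cells. Tyrp1 had 1944 CPM in the 93 cells, 2299 CPM in the remaining HP cells and 1829 CPM in the cluster-matched LP cells, and Mlana, a melanosome protein, 1865, 2315 and 1652 CPM in the same groups. Tyr, the rate-limiting enzyme, had 141 CPM in the 93 cells, 121 CPM in the remaining HP cells and 125 CPM in the cluster-matched LP cells, and the intervals of both its ratios held 1. Pmel, which forms the fibrils of the melanosome, had 1565 CPM in the 93 cells and lay above both others, at 1275 and 1436 CPM in the remaining HP and the cluster-matched LP cells. The 2 members that fell against the remaining HP cells were Slc7a11, the cystine transporter (1.70-fold lower), and Mlph, which ties melanosomes to myosin (1.58-fold lower). Ptgds, a prostaglandin synthase gene, was the member that rose against the cluster-matched LP cells, with 2395 CPM in the 93 cells and 1588 CPM there, and 2408 CPM in the remaining HP cells.

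The 93 cells differed widely in melanin genes. The list took between 0.0800% and 4.35% of their thinned UMIs, with a median of 1.77% (quartiles 1.17 to 2.33). The median was 2% in the remaining HP cells (1.61 to 2.39) and 1.53% in the cluster-matched LP cells (1.19 to 1.91). Of the 93 cells, 19 (20.4%) lay below the 5th percentile of the remaining HP cells and 7 (7.53%) above their 95th. The HP cells of clusters 1 and 2 were not alike in this. Those of cluster 1 had a median of 1.97%, near the 2.04% of HP cluster 3 and above the 1.61% of LP cells of cluster 1. Those of cluster 2 had a median of 1.45%, near the 1.41% of LP cells of cluster 2 and below the 1.99% of HP cluster 0.

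Among 10 measured lineage factors, 2 rose and 4 fell against the remaining HP cells, while 2 rose and 0 fell against the cluster-matched LP cells. For all measured genes the shares were 8.21% higher and 1.95% lower in the first comparison, and 3.4% and 1.51% in the second. Mitf (chromosome 6, 97807052 to 98021349) had 386 CPM in the 93 cells, 510 CPM in the remaining HP cells and 219 CPM in the cluster-matched LP cells, and was 1.76-fold higher than in the last (1.59–1.95) and 1.32-fold lower than in the remaining HP cells (1.20–1.46). The coactivator gene Ppargc1a, with 152 CPM in the 93 cells and 98.4 CPM in the cluster-matched LP cells, was the other factor that rose against them. Sox10, a neural crest factor that acts upstream of Mitf, had 130 CPM in the 93 cells, 226 CPM in the remaining HP cells and 117 CPM in the cluster-matched LP cells, and so stood near the LP level. Sox9, Tfap2a and Ppargc1a also fell against the remaining HP cells, and Tfe3 and Zeb2 rose against them, with ratios of 1.76 and 1.501. Pax3 had ratios of 1.11 to the remaining HP cells and 0.967 to the cluster-matched LP cells.

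Genes that differ most between the main HP and LP cells were not shifted alike. Among 3091 genes with a mean of at least 50 CPM, 47 (1.52%) were higher by 2-fold or more, and 16 (0.518%) lower by as much, in the cluster-matched LP cells than in the remaining HP cells. On a linear scale from 0% at the level of the remaining HP cells to 100% at that of the cluster-matched LP cells, the 93 cells had a median place of 75.3% over the 47 genes (quartiles 63.6 to 90.8) and of 59.4% over the 16 genes (48.7 to 73.8). The log2 ratio of the 93 cells to either group was also divided by the log2 ratio between these groups, and genes were ranked by that share of the gap. On this log scale the median place was 83.1% over the 47 genes and 48.7% over the 16 genes, so that the 16 genes lay past the midpoint towards the LP level on the linear scale and just short of it on the log scale. Nearest to the remaining HP cells by share of the gap were Nsrp1, the heme-degrading enzyme gene Hmox1, Mitf, Maff, the galectin gene Lgals3, Rbbp6, Gas2l3, Fabp7, Tnrc6a and Cflar. Lgals3 (chromosome 14, 47367751 to 47386160) had 506 CPM in the 93 cells, 704 CPM in the remaining HP cells and 289 CPM in the cluster-matched LP cells. Hmox1 had 224 CPM in the 93 cells, 294 CPM in the remaining HP cells and 126 CPM in the cluster-matched LP cells. Nearest to the cluster-matched LP cells by the same measure were Wsb1, Insig1, the protease gene Adamts1, Hes1, Btg2, Atf3, Idi1, Fos, the stress phosphatase subunit gene Ppp1r15a and Usp36. Adamts1 had 81.2 CPM in the 93 cells, 32.0 CPM in the remaining HP cells and 78.8 CPM in the cluster-matched LP cells.

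**Figure D3:**
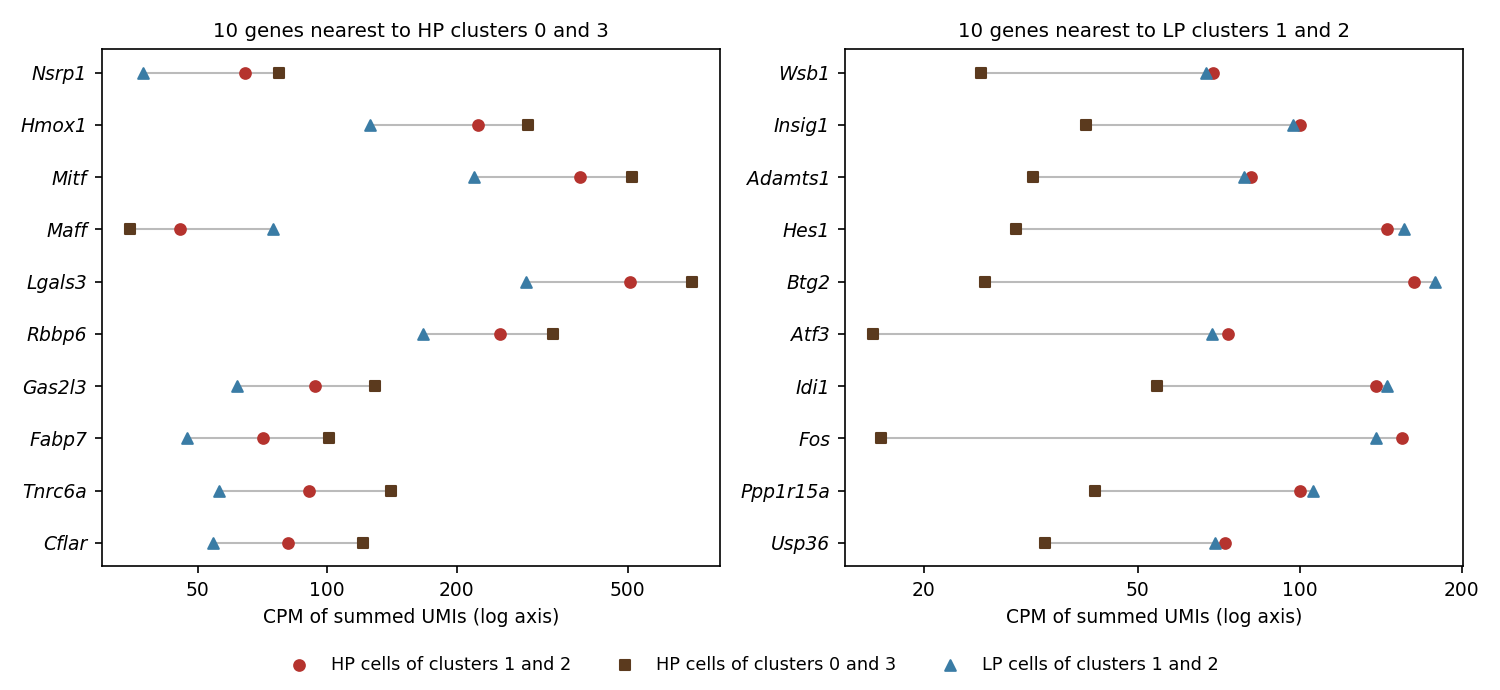
CPM of summed UMIs on a log axis for the 10 genes in which the 93 HP cells of clusters 1 and 2 (circles) lay nearest, as a share of the log gap, to HP cells of clusters 0 and 3 (squares, left panel) and the 10 in which they lay nearest to LP cells of clusters 1 and 2 (triangles, right panel), among genes at least 2-fold apart between those groups. Mitf stands at 386, 510 and 219 CPM in circles, squares and triangles, and Hes1 at 145, 29.8 and 156 CPM.

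Genes lower than in the remaining HP cells were led by Pmepa1, whose protein dampens TGF-beta signals (chromosome 2, 173224458 to 173276533), with 65.2 CPM in the 93 cells, 175 CPM in the remaining HP cells and 70.7 CPM in the cluster-matched LP cells (2.68-fold lower, 2.11–3.45). Tbc1d16 was 2.01-fold, Map7d2 1.93-fold, Nav2 1.91-fold and the chromatin protein gene Hmga2 1.85-fold lower. Gclm, a subunit of the enzyme that starts glutathione synthesis, had 284 CPM in the 93 cells, 487 CPM in the remaining HP cells and 238 CPM in the cluster-matched LP cells. Atxn7l3b, Cmtm4 and Ythdf2, a reader of methylated adenosine in RNA, were lower by 1.65-fold to 1.68-fold. Of 11 genes listed because earlier results had them highest in the HP library, 0 rose and 6 fell against the remaining HP cells, and 5 rose and 0 fell against the cluster-matched LP cells, with median log2 ratios of −0.64 and 0.58, and this choice on the same libraries makes them no independent evidence of direction.

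Genes of G2 and mitosis were higher in the 93 cells than in either other group. Of 47 measured members 13 rose and 0 fell against the remaining HP cells (median log2 ratio 0.41), and 23 rose and 0 fell against the cluster-matched LP cells (0.58). All measured genes were 8.21% higher and 1.95% lower by count in the first comparison, and 3.4% and 1.51% in the second. The list summed to 6867 CPM in the 93 cells, 5350 CPM in the remaining HP cells and 4765 CPM in the cluster-matched LP cells. Cenpf, a kinetochore protein gene (chromosome 1, 189640606 to 189688086), had 297 CPM in the 93 cells, 188 CPM in the remaining HP cells and 123 CPM in the cluster-matched LP cells, and led all genes of at least 50 CPM against the last (2.42-fold, 2.15–2.71). The kinetochore motor gene Cenpe had 142 CPM in the 93 cells, 67.0 CPM in the remaining HP cells and 62.7 CPM in the cluster-matched LP cells. Cdc20, which activates the anaphase-promoting complex, had 85.0 CPM in the 93 cells, 2.88-fold more than in the remaining HP cells and 2.83-fold more than in the cluster-matched LP cells. Against the cluster-matched LP cells the spindle genes Aurka, Hmmr and Nusap1 were 2.14-fold, 1.97-fold and 1.94-fold higher. Of 34 measured S phase genes 6 rose and 0 fell against the remaining HP cells, and 1 rose (Ccne2, a cyclin of S phase entry) and 1 fell (Mcm5, a subunit of the replicative helicase) against the cluster-matched LP cells. Ccne2 passed the filter on mean CPM only through the 93 cells, so its rise is no support for a difference. Counts of 1 of 34 against the cluster-matched LP cells were near the shares of all measured genes. They are no result about the S phase list.

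Phase calls moved with these genes, on which they rest. On thinned cells 47.3% of the 93 cells were called G2 or M (exact interval 36.9–57.9), against 38.0% of the remaining HP cells and 20.9% of the cluster-matched LP cells, while the authors' deposited calls gave 55.9%, 43.9% and 23.8% in these groups. In cluster 1 the share was 35.4% of HP cells (22.2–50.5) and 11.2% of LP cells, and in cluster 2 it was 60.0% of HP cells (44.3–74.3) and 32.8% of LP cells. The cells of the other groups were also weighted, by the authors' deposited calls, to the phase mix of the 93 cells. The list's median log2 ratio to the cluster-matched LP cells was then 0.08 and that to the remaining HP cells 0.31. Cenpf was 1.41-fold and Hmmr 1.26-fold higher than in the LP cells. Phase calls rest on genes of this kind, so the weighting lowers the list's ratios in part by construction. It is therefore no test of the phase mix. Free RNA in droplets was not estimated, the side scatter gate can set shares of phases, and the part of either in these calls was not tested.

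A few cells carried many of the p53 target UMIs of the group. Of 10 measured p53 target genes 1 rose (Trp53inp1) and 0 fell against the remaining HP cells, and 6 rose and 0 fell against the cluster-matched LP cells, with median log2 ratios of 0.27 and 0.78. Shares over all measured genes were 8.21% higher and 1.95% lower in the first comparison, and 3.4% and 1.51% in the second. Cdkn1a (chromosome 17, 29090976 to 29100727), which encodes the cell cycle inhibitor p21, had 569 CPM in the 93 cells, 454 CPM in the remaining HP cells and 242 CPM in the cluster-matched LP cells. Of its 602 UMIs in the 93 cells, 263 (43.7%) came from 4 cells, with 83, 66, 63 and 51 UMIs each, which held 4.74% of all UMIs of the group. All 4 were of cluster 2 and called G2M, and none was called a doublet. In each of them p53 targets took over 1% of thinned UMIs, which was so in 4 of the 93 cells (4.30%, 1.18–10.6), 2 of 2043 remaining HP cells (0.0979%) and 1 of 1845 cluster-matched LP cells (0.0542%). These 4 cells were picked after their values were seen, with shares of 1.08% to 2.07%, and the next of the 93 cells had 0.867%. They also held 96 of 204 UMIs of Trp53inp1, a p53-induced regulator of autophagy, 73 of 211 UMIs of Mdm2, the ubiquitin ligase of p53, and 81 of 251 UMIs of the cyclin gene Ccng1. Without them Cdkn1a had 336 CPM, and its ratio to the cluster-matched LP cells was 1.39 in place of 2.35, that of Trp53inp1 1.22 in place of 2.19, and the list's median log2 ratio 0.09 in place of 0.78. Against the remaining HP cells the list's median turned to −0.26 in place of 0.27 without them, and it was −0.27 for the same 10 genes in cluster 1 set against HP cluster 3. The median share of p53 target UMIs per thinned cell was 0.133% in the 93 cells, 0.187% in the remaining HP cells and 0.12% in the cluster-matched LP cells, so the typical cell of the group lay below the remaining HP cells. Against the remaining HP cells the ratio of Cdkn1a without the 4 cells was 0.74 in place of 1.25, and that of Trp53inp1 1.06 in place of 1.90. The same cells held 8 of 164 UMIs of Fos, 7 of 114 UMIs of Hmgcs1 and 3 of 409 UMIs of Mitf. They also raised the ratios of mitotic genes. Without them the G2 and mitosis list had a median log2 ratio of 0.32 to the remaining HP cells in place of 0.41. To the cluster-matched LP cells it was 0.47 in place of 0.58. Cenpf was then 1.40-fold and Hmmr 1.47-fold higher than in the remaining HP cells, in place of 1.58-fold and 1.73-fold.

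**Figure D4:**
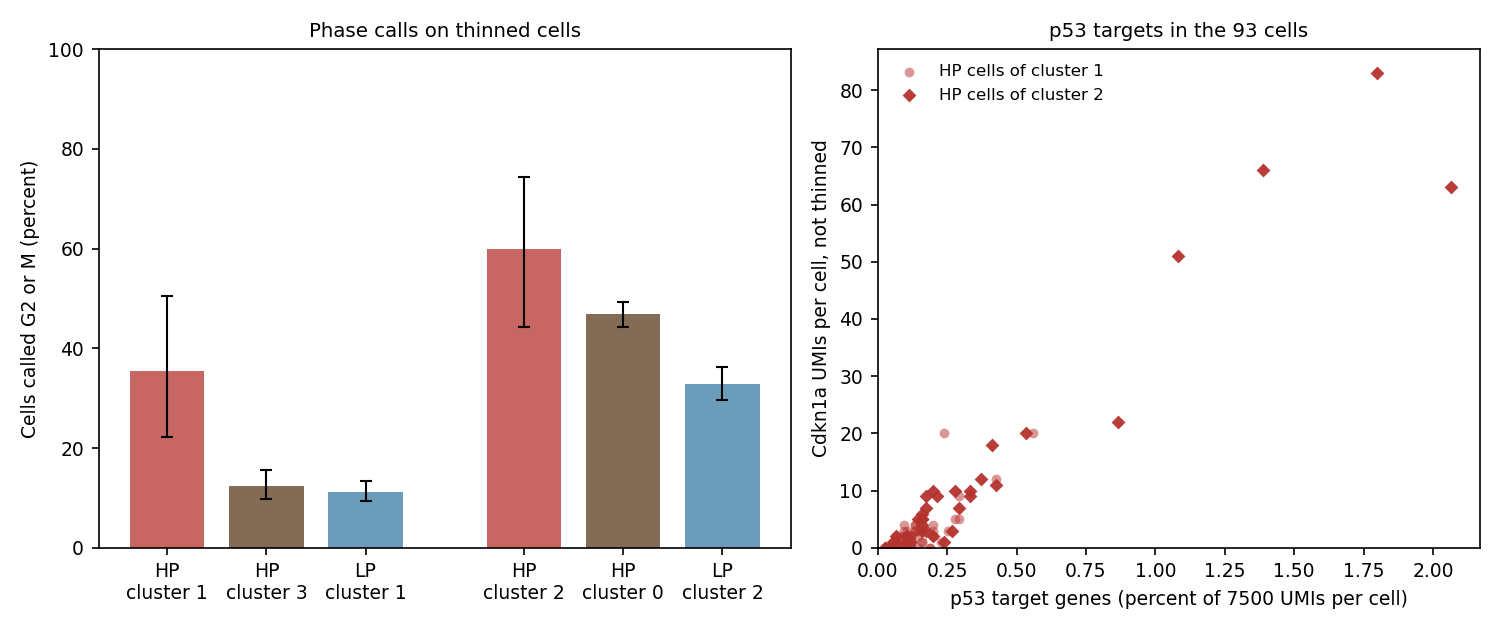
Left, percent of thinned cells called G2 or M by sort and cluster, with HP cells of cluster 1 at 35.4% and of cluster 2 at 60.0%. Error bars are exact 95% intervals, which cover the sampling of cells within 1 library only. Right, each of the 93 cells by its share of p53 target UMIs (percent of 7500) and its Cdkn1a UMIs, circles for cluster 1 and diamonds for cluster 2, where 4 cells of cluster 2 stand above 1% and hold 51 to 83 Cdkn1a UMIs.

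The HP cells of cluster 1 and of cluster 2 differed from each other in cell cycle genes. The G2 and mitosis list summed to 4911 CPM in HP cells of cluster 1 and 8771 CPM in those of cluster 2, while LP cells had 2863 CPM in cluster 1 and 6599 CPM in cluster 2. The immediate early list summed to 4030 CPM in HP cells of cluster 1 and 3766 CPM in those of cluster 2, so it was nearly level, whereas LP cells had 5427 CPM in cluster 1 and 4188 CPM in cluster 2. Fos had 126 CPM in HP cells of cluster 1 and 183 CPM in those of cluster 2, and Hmgcs1 93.9 and 121 CPM. Mitf was close to level, with 381 CPM in HP cells of cluster 1 and 391 CPM in those of cluster 2. Isg15 had 105 CPM in HP cells of cluster 1 and 29.8 CPM in those of cluster 2. Most of the Isg15 UMIs in these HP cells came from a few cells, and the gene passed the filter on mean CPM only through them. The gap in Isg15 is therefore no support for a difference between the clusters.

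Few class I and interferon genes were measured. Of 18 class I and interferon genes 8 were measured, and 4 rose and 0 fell against the remaining HP cells, with a median log2 ratio of 0.83, while 3 rose and 0 fell against the cluster-matched LP cells, with a median of 0.45. In all measured genes 8.21% were higher and 1.95% lower in the first comparison, and 3.4% and 1.51% in the second. Isg15, a ubiquitin-like protein induced by interferon, had 67.1 CPM in the 93 cells, 17.3 CPM in the remaining HP cells and 19.96 CPM in the cluster-matched LP cells, and 60.6% of its UMIs in the 93 cells came from its 4 richest cells. It passed the filter on mean CPM only through the 93 cells, as did Ccne2 and Pdk1 among the other lists. Counting any of these genes among the members that rose is therefore no support for a difference. Ifi35, a further interferon-induced gene, was 2.23-fold higher than in the remaining HP cells and 1.85-fold higher than in the cluster-matched LP cells. The chemokine gene Cxcl10 had 112 CPM in the 93 cells, 41.5 CPM in the remaining HP cells and 61.9 CPM in the cluster-matched LP cells, with 42.0% of its UMIs from its 4 richest cells. H2-K1, an antigen-presenting class I gene with close copies that make its count uncertain, was 2.17-fold higher than in the remaining HP cells and had a ratio of 0.997 to the cluster-matched LP cells.

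Of 24 measured glycolysis and hypoxia genes 5 rose against the remaining HP cells, led by Txnip, which binds thioredoxin, with 39.7 CPM in the 93 cells, 6.26 CPM in the remaining HP cells and 55.2 CPM in the cluster-matched LP cells. Its 4 richest cells held 54.8% of its UMIs in the 93 cells, and the others that rose were Ddit4, Pdk1, Pfkl and Vegfa. Against the cluster-matched LP cells 4 of the 24 rose, the mitochondrial protein genes Higd1a (397 CPM in the 93 cells, 201 CPM there) and Bnip3, the kinase gene Pdk1 and Ero1l, an oxidase of the endoplasmic reticulum, and 0 fell in either comparison. Pdk1 passed the filter on mean CPM only through the 93 cells, so its rise in either comparison is no support for a difference. Of 19 measured genes of the unfolded protein response 1 rose against the remaining HP cells, Dnajb9, and 0 rose against the cluster-matched LP cells. Among 21 NRF2 targets 2 fell against the remaining HP cells, Gclm and Slc7a11, and Hmox1 alone rose against the cluster-matched LP cells. Heat shock genes had 1 of 11 members that rose in each comparison, the chaperone gene Dnajb1. Of 21 ATF4 targets Ddit3 and Sesn2 rose against the remaining HP cells and 0 rose against the cluster-matched LP cells. Matrix and adhesion genes had 1 of 13 that rose in each, the integrin gene Itga4 against the remaining HP cells and Lgals3 against the cluster-matched LP cells. Over all measured genes 8.21% rose and 1.95% fell against the remaining HP cells, and 3.4% and 1.51% against the cluster-matched LP cells. The counts that rose against the remaining HP cells in the heat shock, ATF4, unfolded protein and matrix lists were near the 8.21% share. Counts of 1 that rose against the cluster-matched LP cells in the NRF2, heat shock and matrix lists cannot be told from the 3.4% share. They are no result about these lists. All of the 33 nuclear oxidative phosphorylation, 13 mitochondrially encoded and 32 ribosomal protein genes stayed within 1.5-fold in both comparisons. Over the 3 ribosomal, mitochondrial and oxidative groups the medians ran between −0.18 and 0.16 on the log2 scale. Genes lower than in the cluster-matched LP cells were led by Arid5a, an RNA-binding protein gene, with 51.0 CPM in the 93 cells and 89.7 CPM there, and by Maff, the tRNA synthetase gene Kars and Sympk at 1.63-fold to 1.65-fold.

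**Figure D5:**
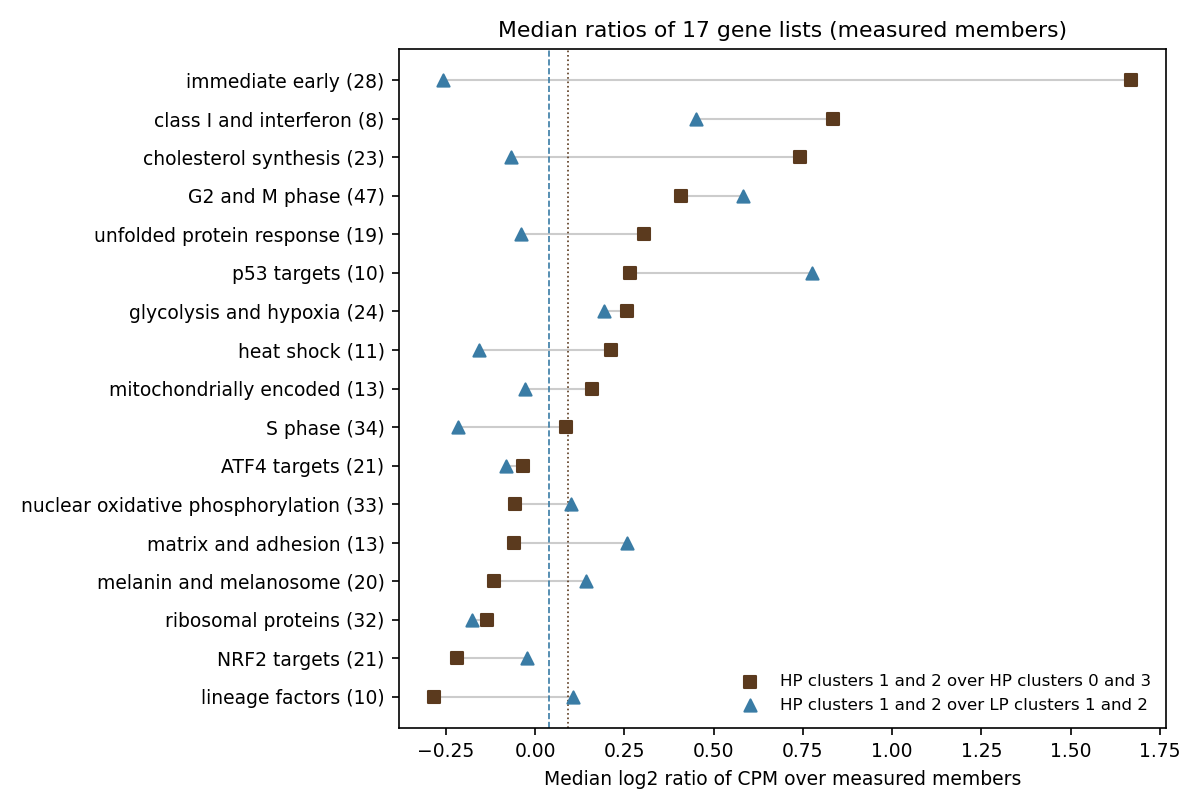
Median log2 ratio of CPM over the measured members of 17 gene lists (number in brackets), for the 93 HP cells of clusters 1 and 2 over HP cells of clusters 0 and 3 (squares) and over LP cells of clusters 1 and 2 (triangles). The dotted and dashed lines mark the medians of all measured genes, 0.09 and 0.04, and the immediate early list stands at 1.67 and −0.26.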

How the data were processed

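Single-cell RNA libraries were made with a droplet kit that tags the 3' end of transcripts, 1 per sort. The authors' deposited matrix gives, for both libraries, the UMI count of each gene under each barcode, made with Cell Ranger 6.1.2 on mm10 per the submitters' processing notes. The deposited cell table gives each kept cell's sort, cluster, phase, mitochondrial percent and phase scores, and the sources used here do not say how clusters were made. It holds 4036 of 5818 barcodes, which were all used. Counts were summed per group and scaled to CPM (32285 genes), ratios carry exact conditional binomial 95% intervals and shares exact Clopper-Pearson ones. With 1 library per sort there is no replicate and no test. Named genes were the 12 highest and lowest by ratio in each comparison at a mean of at least 50 CPM, the 10 nearest to either group, the markers Jun, Fos and Hmgcs1, and list members, and some genes are not reported here. The members, lists and markers were chosen with earlier results of these data known. Scrublet (scanpy 1.11.5, expected rate 0.06) called doublets per library, and none were removed. Phases were called again after thinning to 7500 UMIs. The calculations were tested on simulated data. Software was numpy 2.4.6, scipy 1.17.1 and pandas 2.3.3.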

Additional observations from a re-analysis of the deposited data

How the results depend on the processing

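The counts of genes past 1.5-fold depended on the filter and on depth. Against the remaining HP cells, where 485 were higher and 115 lower, 892 and 269 were at a mean of at least 10 CPM, 146 and 25 at 50 CPM, and 825 and 273 in cluster 2 alone. The lower count there was 254 in cluster 1 alone, 182 after thinning and 184, beside 354 higher, with the median gene set to 1. In cluster 1 alone the immediate early median was 1.00 over the genes that passed the filter in that setting. Against the cluster-matched LP cells, where 201 were higher and 89 lower, 362 and 307 were at 10 CPM, 63 and 13 at 50 CPM, 341 and 247 in cluster 1 alone and 392 and 287 in cluster 2 alone, with 172 lower after thinning. Without the 4 cells rich in p53 targets, a setting chosen after seeing the data, 131 were higher, and Cdkn1a, within 1.5-fold against the remaining HP cells, had a ratio of 0.74 in place of 1.25 there. Among named ratios past 1.5-fold, Trp53inp1 alone turned its direction, at −0.36 on the log2 scale against HP cells in cluster 1 alone. The cause of these moves was not tested, though smaller sums hold fewer UMIs. Of 71 named ratios past 1.5-fold, 70 kept their direction in all 11 settings and 32 came within 1.5-fold in at least 1. No paired analysis was possible because each sort has 1 library. Each measured gene had at least 13 UMIs in the 93 cells, with a median of 58.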
